A study of Bos taurus with 12 samples.

Results

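The 5 genes IL18, CSF1, IL7, TGFB2 and IL6 encode secreted signalling proteins, and their transcripts were followed in cultures of bovine chromaffin cells, which secrete adrenaline and noradrenaline from the adrenal medulla. Every probe set whose platform symbol is 1 of these 5 was taken, which gave 5 of 9155 named genes and 6 of 24016 probe sets tested, 2 for CSF1 and 1 for each other gene. RNA came from cells that received no treatment, from cells given interleukin-6 (IL6) at 10 nM for 24 h, from cells given 1 nM human interferon alpha (IFNα) for 24 h, and from cells given 10 µM histamine for 6 h. All 4 groups had 3 single-colour Affymetrix arrays. The design text calls the triplicates technical, so p-values here measure the spread between arrays and not that between cultures or animals. No label gives the time for which untreated cells were kept. Histamine was given for 6 h and the cytokines for 24 h, so agent and time cannot be told apart between them. The cultures are bulk samples, in which fewer cells of a type and less RNA per cell cannot be told apart.

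IL18 is an inflammatory cytokine of the IL1 family that is stored as a precursor and released after cleavage by an inflammatory caspase. CSF1 is the growth factor of the macrophage lineage and acts through the receptor kinase CSF1R. IL7 keeps lymphocytes alive through a receptor made of IL7R and the shared chain IL2RG. TGFB2 is secreted in a latent form, bound to latency proteins of the matrix, and signals through TGFBR1 and TGFBR2 to SMAD proteins. IL6 signals through IL6R and IL6ST to STAT3, and interferon alpha signals through STAT2 and IRF9, among others. In the adrenal gland, chromaffin cells are known to release TGFB, and cortical cells are known to express IL6 and IL18. All 5 are made by several cell types, and chromaffin cultures can also hold cortical, vascular, connective tissue and immune cells.

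Values are log2 expression after RMA, the array normalisation named by the submitters, and 1 unit is a doubling. A probe set was called higher or lower when limma's Benjamini-Hochberg adjusted p, taken over all 24016 probe sets, was below 0.05 and the change reached 1.5-fold. The IFNα and IL6 labels were checked with known target genes, and the histamine label was not. After IFNα 8 of 8 interferon-response genes were called higher, with a median log2 change of 4.78. Of 4 IL6-response genes 3 were called higher after IL6. The exception was STAT3, whose rise of 0.35 passed the adjusted p (limma, 0.000141) but not the fold minimum. The rise of JUNB, 1 of those 3, was 0.73, or 0.35 and not called without the arrays described below. STAT3 and JUNB also read higher after histamine, by 0.46 and 0.48 (limma, adjusted p = 3.66e-06 and 0.0263), under the fold minimum. Correlations between arrays of a group ran from 0.993 to 0.998. IL6 repeats 2 and 3 and IFNα repeat 3 stood apart in 13 hypoxia and glycolysis genes, whose mean relative to untreated was 0.94, 1.42 and 1.07 there. It was 0.14 on IL6 repeat 1, -0.02 and -0.01 on IFNα repeats 1 and 2, and 0.34 to 0.41 on the histamine arrays. Leaving those 3 arrays out leaves IL6 repeat 1 as the only IL6 array, so IL6 values in that setting rest on 1 array. Chromaffin markers were present in every group, and none of the 9 measured was dim throughout (dim means a group mean under the smallest lower quartile of any array, 5.02).

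**Figure D1:**
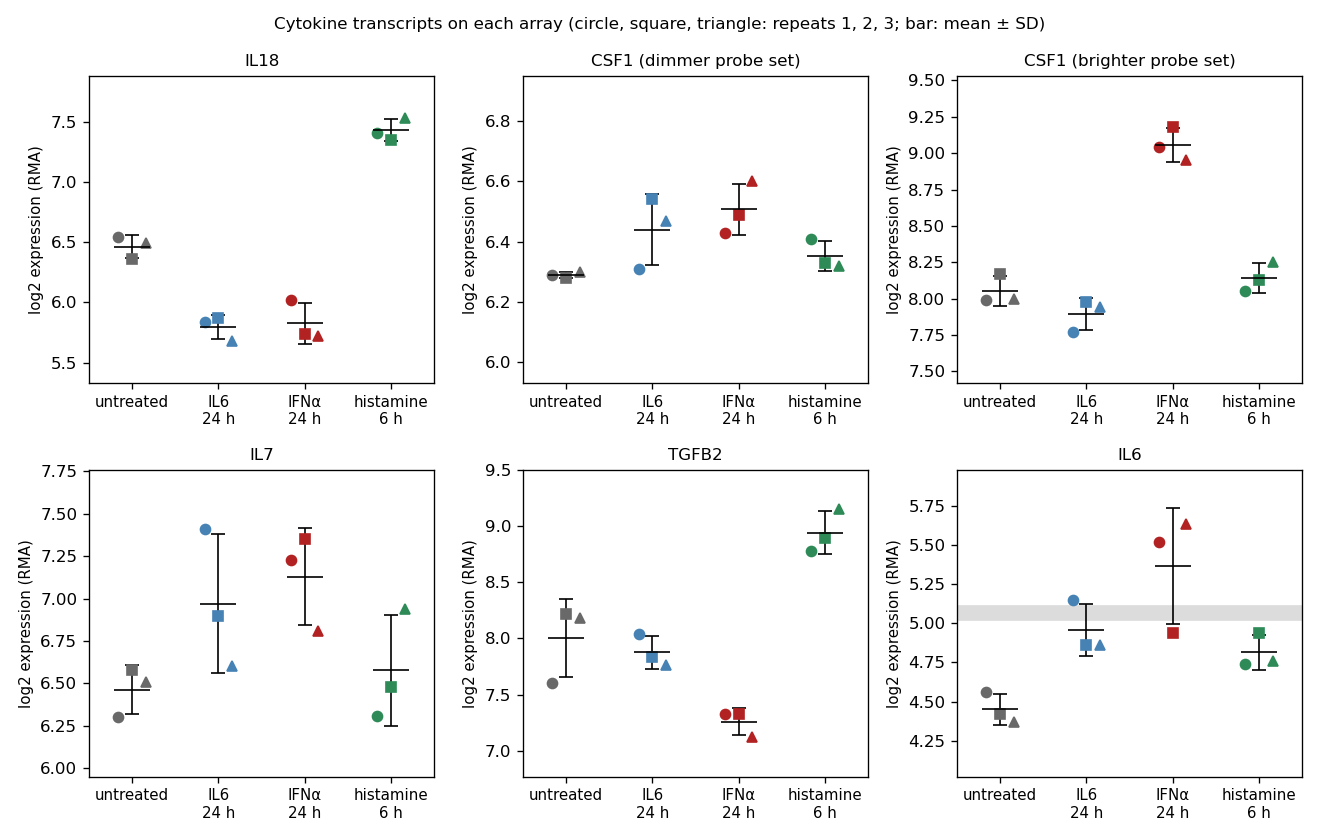
Log2 expression (RMA, y axis) of the 6 probe sets on each of the 12 arrays, by treatment (x axis). Circles, squares and triangles are repeats 1, 2 and 3, bars are the mean ± SD of 3 arrays, and the grey band in the IL6 panel is the range of the arrays' lower quartiles (5.02 to 5.11). IL18 and TGFB2 are highest on the histamine arrays, and the brighter CSF1 probe set is highest on the IFNα arrays.

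IL18 moved in opposite directions in the treatments: it fell after both cytokines and rose after histamine. The IL18 probe set read 6.54, 6.36 and 6.49 on untreated repeats 1, 2 and 3. It read 5.84, 5.87 and 5.68 on the IL6 arrays, and 6.02, 5.74 and 5.72 on the IFNα arrays. On the histamine arrays it read 7.41, 7.35 and 7.53. Each treated group lay wholly outside the untreated range, below it after the cytokines and above it after histamine, whereas the IL6 and IFNα arrays overlapped. Such separation is common here: 33.9% of all probe sets did not overlap between IL6 and untreated arrays, 32.9% between IFNα and untreated, 43.7% between histamine and untreated, and 38.7% between the cytokines.

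IL18 fell by 0.67 on the log2 scale after IL6 (SE 0.09; limma, adjusted p = 0.000177), a change larger than that of 98.1% of all probe sets. After IFNα it fell by 0.64 (SE 0.09; limma, adjusted p = 0.000176). That value is close to the 1.5-fold minimum, and without IFNα repeat 3 it was -0.58, no longer called, with an adjusted p of 0.000998. After 6 h of histamine IL18 rose 1.95-fold (log2 change 0.97, SE 0.09; limma, adjusted p = 2.07e-06). The order of the group means was IL6 (5.80 ± 0.10), IFNα (5.83 ± 0.17), untreated (6.46 ± 0.09) and histamine (7.43 ± 0.09; SD, n = 3 each). The cytokine groups, next to each other in this order, differed by less than their spread, with a difference of -0.03 and a 95% interval from -0.23 to 0.17.

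TGFB2, a growth-restraining and matrix-inducing cytokine, shared the rise after histamine and the fall after IFNα, but was not called after IL6. Its probe set read 7.60, 8.22 and 8.18 on the untreated arrays, so repeat 1 was lower than the others. It read 8.04, 7.83 and 7.76 after IL6, within the untreated range. The 3 IFNα arrays read 7.33, 7.33 and 7.12, all below untreated, and the histamine arrays read 8.78, 8.89 and 9.15, all above. TGFB2 fell by 0.74 after IFNα (SE 0.14; limma, adjusted p = 0.00202) and rose 1.92-fold after histamine (log2 change 0.94, SE 0.14; limma, adjusted p = 0.000141). After IL6 its log2 change was -0.12 with a 95% interval from -0.43 to 0.18, and it was not called under any alternative. It was -0.32 without untreated repeat 1 (limma, adjusted p = 0.0807), -0.013 and -0.033 without untreated repeats 2 and 3, and 0.04 without the 3 arrays that stood apart in hypoxia genes. The means ordered as IFNα (7.26 ± 0.12), IL6 (7.88 ± 0.15), untreated (8.00 ± 0.35) and histamine (8.94 ± 0.19; SD, n = 3 each), of which IL6 and untreated did not differ beyond their spread.

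Some markers of adrenal cortical cells, which make steroids, moved on the arrays on which IL18 moved. Some also moved on the IFNα and histamine arrays on which TGFB2 moved. After IL6 some cortex markers fell while TGFB2 was not called. Of 10 measured cortex markers 3 were lower after IL6, 5 were lower after IFNα and 2 were higher after histamine, and none was called in the other direction in these comparisons. CYP11A1, the first enzyme of steroid synthesis, had log2 changes of -1.27, -1.06 and 0.93 in that order, and HSD3B1, the next enzyme of the pathway, had -0.78, -0.81 and 0.83. NR5A1, MC2R and CYP11B1 were not called, with log2 changes between -0.19 and 0.16 in these comparisons. The summed level of the 10 markers was 10.95 to 11.01 on the untreated arrays, 10.64 to 10.69 after IL6, 10.55 to 10.59 after IFNα and 11.47 to 11.50 after histamine (log2 of the sum). No cortex marker was dim in every group. The part of cortical cells in the IL18 and TGFB2 results was not tested.

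Some of the 9 chromaffin markers changed on these arrays too: 3 were higher after histamine, 1 was higher and 1 lower after IL6, and none was called after IFNα (limma; 4 with an unadjusted p under 0.05). PNMT, the enzyme that makes adrenaline, rose 4.90-fold after histamine (log2 change 2.29) and fell by 0.71 on the log2 scale after IL6, or by 1.18 without the arrays with raised hypoxia genes. SLC18A2, the transporter that loads catecholamines into vesicles, had log2 changes of 0.85 after IL6 and 0.77 after histamine, and SCG2, a granule protein gene, rose by 0.73 after histamine. DBH was not called against untreated, with log2 changes of -0.59 after IL6 and -0.58 after histamine. After IL6 it was -1.13 without the arrays with raised hypoxia genes, which leaves 1 IL6 array. The summed level of the 9 markers was 16.12 to 16.16 untreated, 16.08 to 16.17 after IL6, 16.13 to 16.24 after IFNα and 16.34 to 16.39 after histamine. That sum mostly reflects PENK, CHGB, CHGA and TH, with untreated means from 13.45 to 13.89. Those lie near the highest value on each array (14.01 to 14.14). The part of the chromaffin marker changes in the IL18 and TGFB2 results was not tested.

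**Figure D2:**
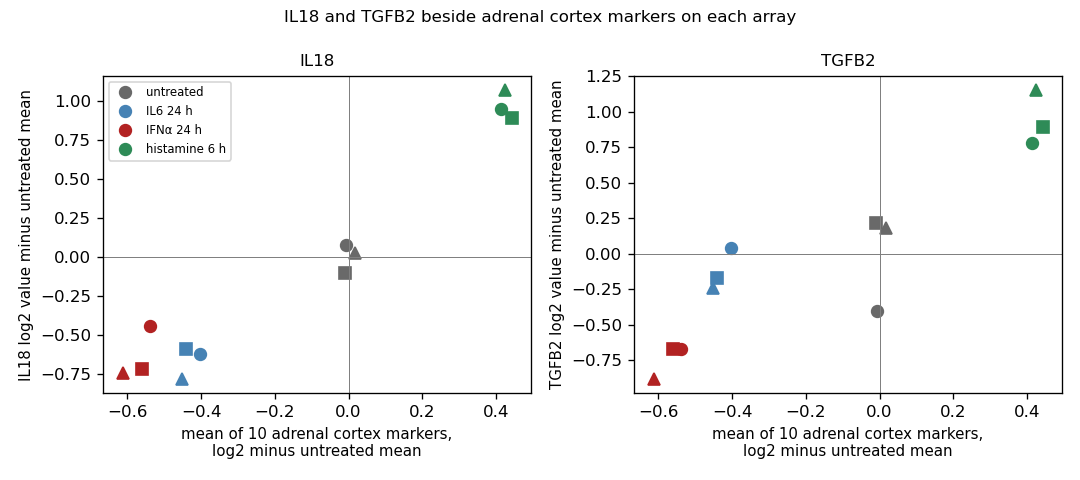
IL18 (left) and TGFB2 (right) on each of the 12 arrays, as the log2 value minus the untreated mean (y axis), against the mean of 10 adrenal cortex markers on the same scale (x axis). Colours are treatments and symbols are repeats as in the plot of the cytokine transcripts by array. All histamine arrays lie at the upper right in both panels. The IL6 arrays lie beside the IFNα arrays for IL18 but above them for TGFB2.

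CSF1 rose after IFNα and was not called after IL6 or histamine, and its probe sets disagreed in size. The brighter probe set read 7.99, 8.17 and 8.00 on the untreated arrays. It read 9.04, 9.18 and 8.95 after IFNα, far above every other array. IL6 arrays read 7.77, 7.98 and 7.94, just below untreated, and histamine arrays read 8.05, 8.13 and 8.25, overlapping untreated. The rise after IFNα was 2.00-fold (log2 change 1.00, SE 0.08; limma, adjusted p = 3.91e-07). The log2 change was -0.16 after IL6 (95% interval -0.33 to 0.02) and 0.09 after histamine (95% interval -0.08 to 0.26). The means ordered as IL6 (7.90 ± 0.11), untreated (8.05 ± 0.10), histamine (8.14 ± 0.10) and IFNα (9.06 ± 0.12; SD, n = 3 each), and untreated and histamine arrays overlapped.

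The dimmer CSF1 probe set stayed within a narrow range, 6.28 to 6.60 over all 12 arrays. It read 6.29, 6.28 and 6.30 untreated and 6.43, 6.49 and 6.60 after IFNα. These arrays did not overlap, yet the log2 change was only 0.22 (95% interval 0.06 to 0.38; limma, adjusted p = 0.065) and was not called. That interval lies below the one of the brighter probe set, 0.83 to 1.18, in the same comparison. It read 6.31, 6.54 and 6.47 after IL6 and 6.41, 6.33 and 6.32 after histamine, with changes of 0.15 and 0.06 on the log2 scale. When both probe sets were averaged, the log2 change of CSF1 after IFNα was 0.61 and remained called. Which CSF1 transcripts each probe set detects is not stated.

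IL7 was higher after IFNα, with a wide spread between arrays. The probe set read 6.30, 6.58 and 6.51 on the untreated arrays and 7.23, 7.35 and 6.81 on the IFNα arrays. IL6 arrays read 7.41, 6.90 and 6.60, which is above untreated but by very different amounts. Histamine arrays read 6.31, 6.48 and 6.94 and overlapped untreated. IL7 rose 1.59-fold after IFNα (log2 change 0.67, SE 0.20; limma, adjusted p = 0.0307). This call depended on single arrays: it was lost without any 1 of the 3 untreated arrays or without IFNα repeat 1 or 2, with log2 changes from 0.56 to 0.73 and adjusted p from 0.0567 to 0.124. Limma's robust setting also lost it (adjusted p = 0.0715).

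After IL6 the difference of IL7 was 0.51 (SE 0.20; limma, adjusted p = 0.0941) and was not called, but without IL6 repeat 3 it was 0.69 and was called (adjusted p = 0.0316). In both cytokine groups the lower IL7 readings fell on the arrays whose hypoxia genes were raised, 6.90 and 6.60 on IL6 repeats 2 and 3 and 6.81 on IFNα repeat 3. With those 3 arrays left out, which leaves a single IL6 array, the log2 change of IL7 after IL6 was 0.95. Its log2 change after IFNα was then 0.83. The part of the hypoxia difference in the IL7 values was not tested. After histamine the log2 change was 0.11 (95% interval -0.31 to 0.54), and it was -0.068 without histamine repeat 3. The means ordered as untreated (6.46 ± 0.15), histamine (6.58 ± 0.33), IL6 (6.97 ± 0.41) and IFNα (7.13 ± 0.28; SD, n = 3 each), and the arrays of every neighbouring pair overlapped.

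**Figure D3:**
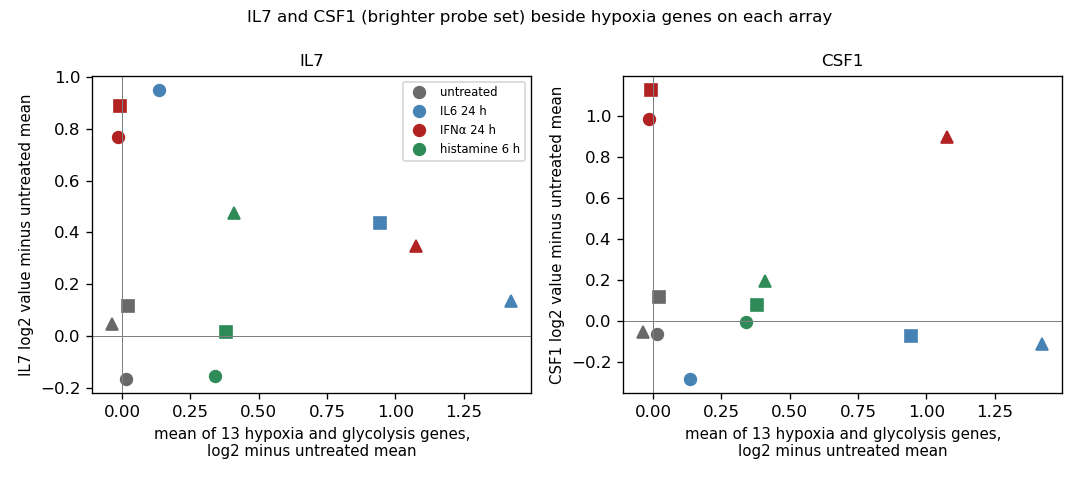
IL7 (left) and the brighter CSF1 probe set (right) on each of the 12 arrays, as the log2 value minus the untreated mean (y axis), against the mean of 13 hypoxia and glycolysis genes on the same scale (x axis). Colours are treatments and symbols are repeats. For IL7 the 3 cytokine-treated arrays at the far right (IL6 repeats 2 and 3, IFNα repeat 3) read lower than the other cytokine-treated arrays, and for CSF1 the 3 IFNα arrays stay together at the top.

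The IL6 transcript was dim in every group except IFNα. Its probe set read 4.56, 4.42 and 4.37 on the untreated arrays, below the lower quartile of each array. It read 5.52, 4.94 and 5.63 after IFNα, so repeats 1 and 3 lay above the lower quartile of their arrays. The IL6 arrays read 5.15, 4.86 and 4.86 and the histamine arrays 4.74, 4.94 and 4.76, all above the untreated arrays but mostly still dim. The rise after IFNα was at least 1.88-fold (log2 change 0.91, SE 0.14; limma, adjusted p = 0.000372), read as a lower bound because the untreated level was dim.

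After treatment with IL6 protein or histamine the group means of the IL6 transcript were dim, as in untreated cells, so the differences below are between dim readings and are not read as the size of a change. The reading was 0.51 higher on the log2 scale after IL6 protein (SE 0.14; limma, adjusted p = 0.0265), under the fold minimum, where 17.4% of all probe sets passed that p at any fold. Without the 3 arrays that stood apart in hypoxia genes it was 0.70. That value rests on IL6 repeat 1 alone, the only IL6 array that was not below its lower quartile (5.15). The reading after histamine was 0.36 higher (95% interval 0.05 to 0.67; limma, adjusted p = 0.073). The means ordered as untreated (4.45 ± 0.10), histamine (4.81 ± 0.11), IL6 (4.96 ± 0.17) and IFNα (5.36 ± 0.37; SD, n = 3 each), and neighbours from histamine upward had overlapping arrays.

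After IL6, 1 of the 6 probe sets was called, against 2.39% of all probe sets. After histamine 2 of the 6 were called, both higher, against 5.7% of all in either direction and 2.99% that were higher. After IFNα 5 of the 6 were called, 3 higher and 2 lower, against 3.36% of all (2.18% higher and 1.18% lower). The 5 genes are those cytokines, chemokines apart, that an earlier analysis of these arrays had called after IFNα, so nothing is read from that last count. The 3 comparisons share the untreated arrays.

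**Figure D4:**
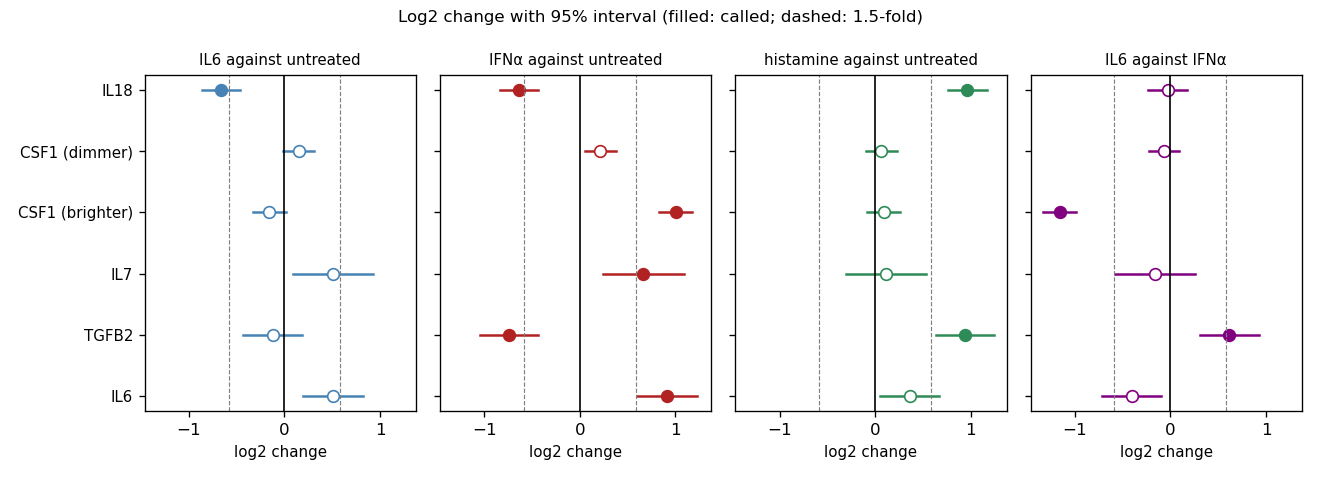
Log2 change (x axis) of the 6 probe sets (rows) in the 4 comparisons (panels), with 95% intervals from limma. Filled points were called and dashed lines mark 1.5-fold. The brighter CSF1 probe set and TGFB2 are the filled points in the panel that compares the cytokines.

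IL6 and IFNα were compared directly at 24 h, in different molar doses. CSF1 and TGFB2 differed, with 2 of the 6 probe sets called against 6.11% of all. The cytokines were chosen for their calls after IFNα and the same IFNα arrays enter this comparison, so nothing is read from that count. The brighter CSF1 probe set was 2.23-fold lower after IL6 than after IFNα (log2 difference -1.16, SE 0.08; limma, adjusted p = 4.96e-08), and the arrays of the groups did not overlap. TGFB2 was 1.53-fold higher after IL6 than after IFNα (log2 difference 0.62, SE 0.14; limma, adjusted p = 0.00461). That difference fell under the fold minimum without IL6 repeat 1 (0.54) or IFNα repeat 3 (0.55). The IL6 transcript was lower after IL6 than after IFNα by a log2 difference of -0.41 (limma, adjusted p = 0.0492), under the fold minimum, where 28.5% of all probe sets passed that p at any fold. The level after IL6 was dim, so the size of this difference is a bound. It was -0.62 and was called without IFNα repeat 2, and -0.27 without IFNα repeat 3 (limma, adjusted p = 0.176). With the 3 arrays of raised hypoxia genes left out, which leaves 1 IL6 array, it was -0.08. IL7 showed a difference of -0.16 with a 95% interval from -0.58 to 0.26, which turned to 0.12 when the arrays with raised hypoxia genes were left out. The dimmer CSF1 probe set showed -0.07 (95% interval -0.23 to 0.09).

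The receptors of the 5 cytokines were not called in any of the 4 comparisons, as far as they were measured. The receptor kinase CSF1R had group means of 5.58 untreated, 5.84 after IL6, 5.67 after IFNα and 5.66 after histamine. The IL7 receptor's shared chain IL2RG had 5.67, 5.80, 5.74 and 5.81 in the same order. TGFBR2 had 6.88, 7.12, 6.72 and 7.05, and its difference between the cytokines, 0.40, passed the adjusted p (limma, 0.00443) but not the fold minimum. The IL6 receptor IL6R had 6.18, 6.35, 5.96 and 6.01, and its difference between the cytokines was 0.39 (limma, adjusted p = 0.0445). That difference was 0.61 and was called without the arrays with raised hypoxia genes. IL18R1 and TGFBR1 were dim in every group. IL7R and IL6ST were not analysed here.

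Of 17 measured genes of IL18 processing and the IL1 family, 1 was called after IFNα and none after IL6 or histamine in the limma fit, where 9 and 8 had an unadjusted p under 0.05. The inflammatory caspase gene CASP4 rose 4.40-fold after IFNα (log2 change 2.14, SE 0.10; limma, adjusted p = 3.61e-10) on the arrays on which IL18 fell, and it was 3.49-fold lower after IL6 than after IFNα. CASP1, the caspase that matures IL18, had a log2 change of 0.38 after IL6. It was 0.62 when the arrays with raised hypoxia genes were left out, which leaves 1 IL6 array. The list's median log2 change was 0.09 after IFNα, beside -0.02 for all probe sets. None of 8 genes around CSF1 and its receptor was called by limma in any comparison, and 0, 1, 2 and 2 had an unadjusted p under 0.05 after IL6, IFNα, histamine and between the cytokines.

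Of 11 genes of the IL7 receptor family and its signalling, 2 rose after IL6, 1 after IFNα and none after histamine in the limma fit (6 with an unadjusted p under 0.05). SOCS2, a feedback inhibitor of cytokine receptors, rose 1.55-fold after IL6 and 1.66-fold after IFNα. Its log2 change after IL6 was 0.54, below the fold minimum, without the arrays with raised hypoxia genes. IL4R, a receptor chain that pairs with IL2RG, rose 1.58-fold after IL6 and was 1.71-fold higher after IL6 than after IFNα. Of 9 genes around IL6 and its receptors, 2 rose after IL6, 1 after IFNα and none after histamine in limma (3 with an unadjusted p under 0.05). SOCS3, the feedback inhibitor of IL6 signalling, rose at least 2.43-fold after IL6, with a dim untreated level. OSMR, which encodes the oncostatin M receptor, rose 1.91-fold after IL6 and 1.87-fold after IFNα, but its IL6 change was 0.49 and not called without the arrays with raised hypoxia genes.

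Genes around TGFB2 were called in both directions among the 26 measured. After IL6 3 of them fell: LTBP1, which tethers latent TGFB to the matrix, by 0.77, THBS1, an activator of latent TGFB, by 0.72, and BAMBI, a decoy receptor, by 0.59 on the log2 scale, the last with a dim level after IL6. Without the arrays with raised hypoxia genes, which leaves 1 IL6 array, LTBP1 and BAMBI were under the fold minimum (-0.44 and -0.57). On that single IL6 array CCN2, a matricellular TGFB target, had a change of -0.60, and TGFB3, the sister ligand, had 0.65. After IFNα THBS1 fell by 0.74, or by 0.58 without those arrays, when it was not called. After histamine, on the arrays on which TGFB2 rose, FST, which encodes the activin-binding protein follistatin, rose 3.15-fold, ITGAV, an integrin chain that binds latent TGFB, rose 1.88-fold, and INHBA, an activin subunit, rose 1.63-fold. TGFBI, a matrix protein induced by TGFB, fell by 0.63 on the log2 scale there. Between the cytokines ITGAV was 1.57-fold higher after IL6 (log2 difference 0.65, or 0.58 and not called without the arrays with raised hypoxia genes), and BAMBI was 1.61-fold lower with a dim level after IL6.

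Of 19 transcription factors and RNA-binding proteins known to act on IL6 or IL18 transcripts, 5 rose after IFNα, beside 2.18% of all probe sets. After IL6 2 rose, and after histamine 1 fell. The list includes genes of interferon signalling and was drawn up with earlier results known, so nothing is read from its counts that involve IFNα. NFKB1, RELA, CEBPB, NFKBIZ and ARID5A were not called in any of the 4 comparisons. NFKB1 had log2 changes of 0.34 after IFNα, 0.36 after histamine and -0.32 between the cytokines. These passed the adjusted p (limma, 0.00135, 0.000433 and 0.0012) but not the fold minimum. NFKBIA, also on the list, rose by 0.46 after IFNα (limma, adjusted p = 0.000887), under the fold minimum. It was called lower after IL6 than after IFNα (log2 difference -0.68). After IFNα IRF7 rose 7.67-fold, IRF9 4.36-fold and STAT2 3.29-fold, all parts of interferon signalling. ZFP36, which encodes tristetraprolin, a protein that speeds the decay of cytokine messenger RNAs, rose 2.60-fold after IFNα and 1.69-fold after IL6. CEBPD, a transcription factor of the IL6 response, rose 3.60-fold after IL6 and had a log2 change of 0.01 after IFNα. IRF9 fell by 0.74 after histamine. Between the cytokines 1 of the 19 was higher after IL6, CEBPD, and 6 were lower, IRF7 by the most (log2 difference -2.73). ZFP36, also among those 6, was -0.62, or -0.40 and not called without the arrays with raised hypoxia genes.

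**Figure D5:**
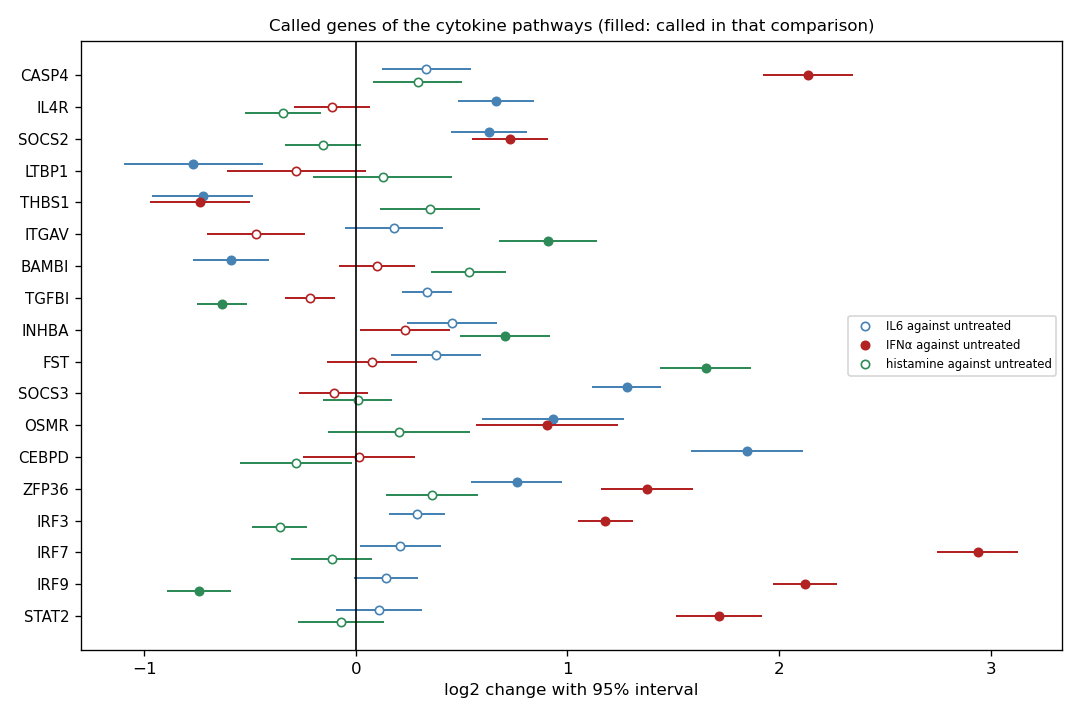
Log2 change against untreated (x axis, with 95% intervals from limma) of the 18 genes of the cytokine pathways called in at least 1 of the comparisons with untreated cells (rows). Filled points were called. IRF7, IRF9 and CASP4 lie furthest to the right after IFNα, CEBPD and SOCS3 after IL6, and FST after histamine.

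Other cytokine ligands gave no call, which for IFNα follows from how the 5 cytokines were chosen, so nothing is read from that count. Of 37 measured, limma called 0 after IL6, 0 after IFNα, 0 after histamine and 0 between the cytokines, and 6, 4, 5 and 6 had an unadjusted p under 0.05. VEGFA had a log2 change of 1.25 after histamine with all arrays (limma, adjusted p = 0.12) and was not called. Without the arrays with raised hypoxia genes its change was the same, 1.25, and was called. VEGFA is itself 1 of the hypoxia genes in which those arrays stood apart, so nothing is read from that call. With the same arrays left out TGFB3 had a log2 change of 0.65 after IL6, which rests on 1 IL6 array. IL2, IL3, IL4, IL5, IL12B, IL15, IL21, IFNG and 6 more of these ligands were dim in every group.

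Of the other cell types that could hold these cytokines, 15 leukocyte markers gave 2 higher and 1 lower after IL6, none after IFNα (limma; 4 with an unadjusted p under 0.05) and 1 higher after histamine. Their summed level was 9.75 to 9.79 untreated, 10.46 to 10.62 after IL6, 9.66 to 9.78 after IFNα and 9.99 to 10.04 after histamine. The pan-leukocyte marker PTPRC was dim in every group, as were ITGAM, CD79A, MS4A1, TYROBP and FCER1G. CD14 and CORO1A had log2 changes of 1.03 and 1.70 after IL6, and ITGB2 fell by 0.95. CD14 and CORO1A were the brightest of the 15 (untreated means 7.32 and 7.66), so the higher summed level after IL6 mostly reflects them. Of 12 fibroblast and mural markers POSTN was higher and ACTA2 lower after IL6 (0.94 and -0.67), ACTA2 was lower after IFNα (-0.76), and COL1A2 was higher after histamine (0.69). The summed level of these 12 was 13.31 to 13.38 untreated, 13.33 to 13.39 after IL6, 13.14 to 13.29 after IFNα and 13.49 to 13.50 after histamine, and FAP was dim in every group. That sum mostly reflects DCN, the brightest of the 12, with an untreated mean of 13.04. Among 11 endothelial markers EMCN was lower after both cytokines (-0.60 and -0.89), and TEK was lower and CLDN5 higher after histamine (-0.81 and 0.62). Their summed level was 9.61 to 9.64 untreated, 9.31 to 9.50 after IL6, 9.29 to 9.32 after IFNα and 9.37 to 9.51 after histamine, and VWF, KDR and FLT1 were dim in every group. Limma called none of 6 Schwann cell markers against untreated, and 3, 2 and 3 had an unadjusted p under 0.05 after IL6, IFNα and histamine. The part of these cells in the cytokine results was not tested.

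The genes whose levels were most like each cytokine over the 12 arrays were taken by Pearson correlation among 1701 named genes that varied at least 1.5-fold between group means. These values describe arrays that share 4 group levels. For IL18 they were USP46 (0.99), HSD3B1 (0.99), NID2 (0.98), ACO1 (0.98) and COL4A1 (0.98), so a steroid enzyme and a chain of the basement membrane collagen were among them. For TGFB2 they were SRM, DDX27, GOLM1, UQCRB and OAT (0.98 to 0.96). Of these only SRM, the spermidine synthase gene, was called in any comparison, higher after histamine with a log2 change of 0.72.

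For CSF1 the nearest were SCO1, LY6E, FKBP11, TCOF1 and ANXA1 (0.99 to 0.98). All 5 were called higher after IFNα, LY6E with a log2 change of 2.68 and ANXA1, the annexin A1 gene, with 1.87. Over the 9 arrays without IFNα their correlations with CSF1 were 0.76 to 0.91. IL7 and IL6 had no gene as close. For IL7 the first were ZFP36 (0.81), RNF19B (0.79) and ACP2 (0.78), then LMO2 and SCNN1G (both 0.76). For IL6 the first were ZFP36 (0.87), LAP3 (0.86) and SHISA5 (0.86), then YRDC (0.84) and IFI30 (0.83). ZFP36 headed both lists, with group means of 6.83 untreated, 7.19 after histamine, 7.59 after IL6 and 8.20 after IFNα. Among the cytokines themselves the highest correlation was that of IL18 with TGFB2 (Pearson 0.88, Spearman 0.75, 12 arrays), and the correlation of their deviations from the group means was 0.09.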

How the data were processed

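The deposited table held log2 values for 24128 probe sets, from 2.88 to 14.14. The submitters' processing notes name RMA as the step by which the authors obtained them. RMA subtracts background, equalises arrays and condenses each probe set, and it compresses changes of dim transcripts. No source states its version. Detection calls were not used here, and precision is limited by the number of arrays. After removal of 112 control probe sets, 24016 were tested and 13292 had 1 gene symbol in the platform annotation (86 several, 10638 none). Of those, 13263 were matched by gene identifier to a RefSeq gene table.

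The fit used limma 3.58.1 in R 4.3.3 (a mean per group over all 12 arrays, eBayes with a trend). Lists share a few genes. Genes in lists were represented by their brightest probe set. All 6 probe sets of the 5 cytokines entered the tests with no filter on low values. On data simulated for IFNα against untreated (24016 probe sets), the call recovered 48% of changes made at 1.5-fold, 98% at 2-fold and 100% at 4-fold, and 3 calls were false. Changes made at 1.5-fold lie on the fold minimum, so their recovery is set largely by that rule. The simulated noise was independent between arrays, unlike the hypoxia difference shared by 3 real arrays, so the false calls do not describe these data. The cytokines and gene lists were chosen with earlier results of these data known. Named were the cytokines, their receptors, up to 4 called genes of each list in each direction, up to 3 called markers of each cell type, and the 5 genes most like each cytokine; genes called only under an alternative were chosen after their values were seen.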

Additional observations from a re-analysis of the deposited data

How the results depend on the processing

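Across 24 log2 changes of the cytokine probe sets and 24 alternative settings, 510 of 544 values kept their direction and their side of the threshold, 19 lost the call, 6 gained it and 9 changed sign. With no fold minimum 4170, 4017, 7581 and 6839 probe sets were called after IL6, IFNα, histamine and between the cytokines. The cytokine probe sets called after IL6 were then 2, and the IL6 transcript gained calls after IL6 (0.51, with both groups dim) and between the cytokines (-0.41). At 2-fold the counts were 149, 322, 253 and 549, with 0, 1, 0 and 1 cytokine probe sets. Calls were lost there by IL18 (-0.67 after IL6, -0.64 after IFNα, 0.97 after histamine), TGFB2 (-0.74 after IFNα, 0.94 after histamine, 0.62 between the cytokines), and IL7 and IL6 after IFNα (0.67 and 0.91). The robust fit lost IL7 after IFNα (0.67). With the probe sets below the median brightness left out, which removes IL18, IL6 and the dimmer CSF1 probe set, 0, 3 and 1 were called against untreated. Array weights gave IL6 repeat 2 a weight of 5.55, against 0.39 and 0.52 for IL6 repeats 1 and 3. Weighted IL6 values thus rest mostly on that array, 1 of those with raised hypoxia genes. The weighted fit left 1 called between the cytokines, where TGFB2 lost its call (0.53), IL18 turned to 0.022 and the dimmer CSF1 probe set to 0.039. Median centring turned IL18 there to 0.0033. Without the 3 arrays with raised hypoxia genes 3 were called after IL6: IL18, IL7 (0.95) and IL6 (0.70). TGFB2 turned to 0.04 there, IL18 after IFNα lost its call (-0.58), and IL7 between the cytokines turned to 0.12.

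With each array left out in turn, 564 to 765, 772 to 859, 1364 to 1450 and 1444 to 1615 probe sets were called, of which 1 to 2, 4 to 5, 2 to 2 and 1 to 3 belonged to the cytokines. After IL6, IL7 ranged from 0.29 to 0.69. After IFNα, IL7 ranged from 0.56 to 0.83 and IL18 from -0.73 to -0.58. After histamine, IL7 ranged from -0.068 to 0.25. Between the cytokines TGFB2 ranged from 0.54 to 0.68, IL6 from -0.62 to -0.27, IL7 from -0.38 to 0.025 (the last without IL6 repeat 3) and IL18 from -0.083 to 0.067, with 0.028 without IL6 repeat 3 and 0.067 without IFNα repeat 1.

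Of 18 pairs of arrays with the same repeat number in different groups, 7 had deviations from the group means that correlated above 0.1, and the best partner had the same number for 9 of 12 arrays, a hint of a shared repeat effect from the data and not from the design. These correlations ran from -0.07 to 0.60 for equal numbers and from -0.61 to 0.37 for different ones. Nothing in the labels ties equal repeat numbers to a shared culture or day, so the numbers were not taken as pairs. With the repeat number as a block 600, 827, 1384 and 1473 probe sets were called, and no call of a cytokine probe set changed.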

Other observations

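Arrays of a group did not deviate alike in the 5 cytokines. Over the 12 arrays, deviations from the group means correlated by 0.76 between IL7 and TGFB2, by -0.75 between IL7 and the dimmer CSF1 probe set, and by 0.08 between both CSF1 probe sets. These values were chosen after they were seen, rest on 3 arrays per group and carry no test.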
